A study of Mus musculus with 8 samples.

Results

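The Iroquois genes and Fto were described in sorted cells of the newborn mouse inner ear. The table of the series holds 15275 genes, and 6 of them are Fto or have a symbol made of Irx and a digit: Irx1, Irx2, Irx3, Irx5, Irx6 and Fto. Irx4 was not analysed here. Messenger RNA was sequenced from 4 sorted cell types (epithelial cells, mesenchyme, neurons and vascular endothelium), each from the cochlea and from the vestibular organs, as 1 library each (8 libraries). All libraries come from ICR pups at postnatal day 0, sorted with antibodies to CD326, CD49f and CD34, with no genotype, treatment or sex given in the labels, and the number of pups per library is not stated. The results text of the study names postnatal day 2, whereas its methods and the labels give day 0 for these libraries.

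Iroquois genes encode homeodomain transcription factors of the TALE class, in which a short loop is inserted into the DNA-binding fold. They are known for subdividing tissues such as the neural plate, the heart and the limb buds during development, and in mammals they lie in a pair of gene clusters, with Irx1 and Irx2 in one of them and Irx3, Irx5 and Irx6 in the other. Fto encodes a dioxygenase that removes the methyl group from N6-methyladenosine, the most common internal mark of messenger RNA, and from a related mark at the cap. Sequences within introns of the human FTO gene are known to contact the promoters of IRX3 and IRX5 over a long distance, and the study lists all 3 genes among the putative risk genes for hearing difficulty, so the comparison here asks in which inner ear cell types each of them is read out as RNA.

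In GRCm38 with the GENCODE vM21 annotation, Fto spans chr8:91313525-91668439 on the plus strand, Irx3 chr8:91798525-91802067 on the minus strand, Irx5 chr8:92357625-92376286 on the plus strand and Irx6 chr8:92674288-92680956 on the plus strand. The start of Irx3 is 488.5 kb from that of Fto and 555.6 kb from that of Irx5, and the starts of Irx5 and Irx6 are 316.7 kb apart. Irx1 lies at chr13:71957921-71963723 on the minus strand, and Irx2 at chr13:72628820-72634198 on the plus strand, with 665.1 kb between their starts. Each value below covers a whole gene, so it does not say which exon or isoform the reads came from.

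The homeobox is the part of each coding sequence that encodes the DNA-binding domain, and it is conserved across the family. A stretch of 180 bases over it is shown for the 3 Iroquois genes that were off the floor in all 8 libraries. This stretch was picked as the window of Irx3 that shares the most bases with the other Iroquois genes. Its identities are thus high by choice, and it need not span the whole homeobox. Short reads from it can resemble those of another member. Lower case marks bases shared with Irx3, and capitals mark bases that differ from it. The sequences are bases 403 to 582 of the coding sequence of Irx3 (transcript Irx3-201), 349 to 528 of Irx5 (Irx5-202) and 394 to 573 of Irx1 (Irx1-201) in GENCODE vM21, each on the strand of its gene.
Irx3: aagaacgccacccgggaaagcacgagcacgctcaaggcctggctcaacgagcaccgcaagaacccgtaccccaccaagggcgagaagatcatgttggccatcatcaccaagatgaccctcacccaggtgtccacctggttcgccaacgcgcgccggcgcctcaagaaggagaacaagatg
Irx5: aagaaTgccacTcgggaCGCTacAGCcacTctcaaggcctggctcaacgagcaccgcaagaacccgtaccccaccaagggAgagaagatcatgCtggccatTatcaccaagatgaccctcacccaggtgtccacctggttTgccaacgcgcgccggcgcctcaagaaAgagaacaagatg
Irx1: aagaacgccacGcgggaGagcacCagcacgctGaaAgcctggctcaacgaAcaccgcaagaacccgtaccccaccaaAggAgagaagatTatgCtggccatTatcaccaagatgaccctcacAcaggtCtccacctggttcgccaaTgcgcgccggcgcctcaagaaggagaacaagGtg
Over these 180 bases Irx3 and Irx5 are identical at 165, with 10 of the 15 differences at the third position of a codon, and 57 of the 60 encoded residues are the same. Irx3 and Irx1 are also identical at 165 bases, with 13 of the 15 differences at the third position of a codon and 59 of 60 residues the same. Over whole transcripts, the longest run of identical bases was 50 between Irx3 and Irx5, 88 between Irx3 and Irx6, 65 between Irx2 and Irx5 and 30 between Irx1 and Irx3. Reads that fall wholly within such a run cannot be told apart, and the authors' way of counting them is not stated. Irx6 was at the lowest value of the table in cochlear vascular endothelium, where Irx3 had a signal of 2267.4, and Irx2 was at the lowest value in cochlear epithelial cells, where Irx5 had 2557.4.

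The unit is a signal that the authors scaled until all 8 libraries shared one distribution, with a median of 374.4 and a floor of 20, at which 2058 genes stand in each library. Sequencing depth cannot be read from values scaled in this way, which leaves counting error without an estimate, and since division by gene length is not stated, levels are compared between libraries for 1 gene, not between genes. The cell types were checked with marker genes. All 5 epithelial markers were highest in the epithelial library of each organ, all 5 endothelial markers in the vascular endothelial library, and 4 of 5 mesenchymal markers in the mesenchymal library. The neuron libraries went against their label in part: all 5 markers of glia and Schwann cells were highest there in both organs (summed signal of 132656.4 in cochlear and 132502.5 in vestibular neurons, against 1272.3 to 11628.7 in the other 6 libraries), whereas neuronal markers were highest there for 4 of 5 genes in the cochlea and 1 of 5 in the vestibular organs, where the neuronal marker Tubb3 had a signal of 36.9. They are called neurons below as the labels do.

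**Figure D1:**
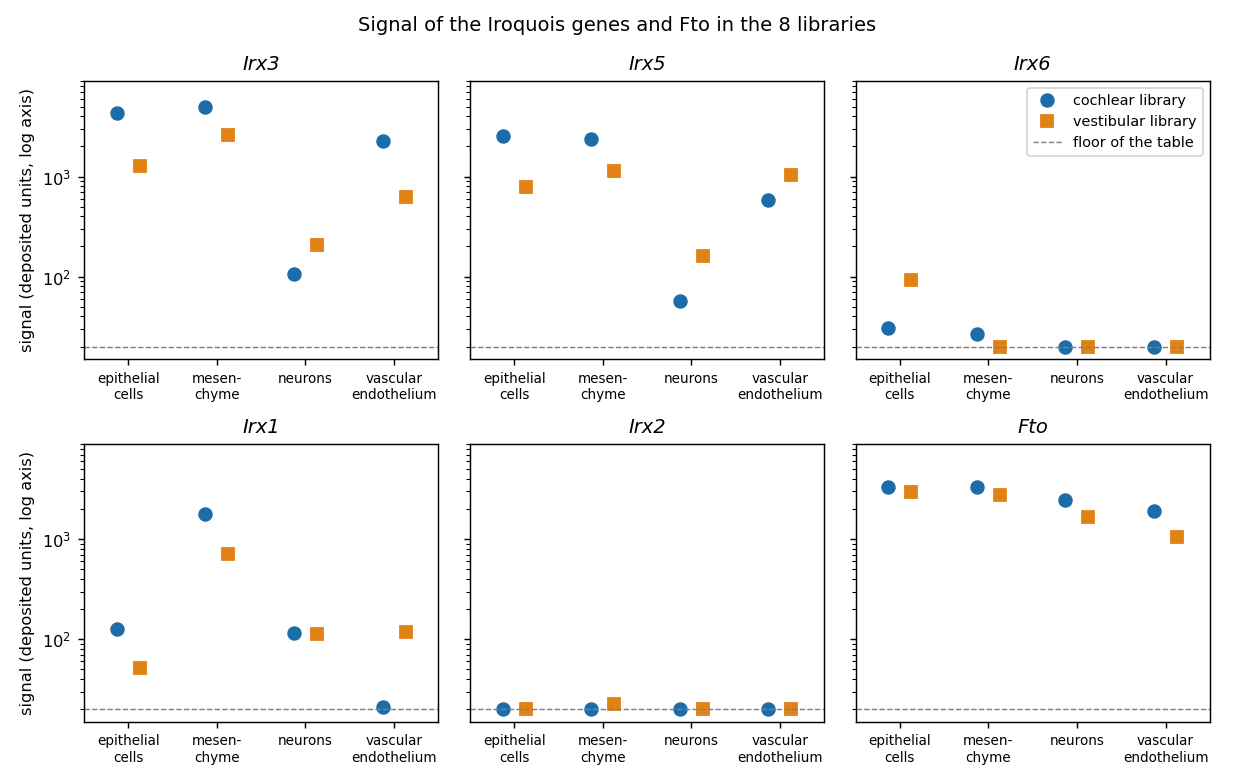
Signal of the 5 Iroquois genes and Fto in each library, on a log axis shared by all panels; circles are cochlear libraries, squares vestibular libraries, and the dashed line is the floor of 20. Irx3 and Irx5 are lowest in both neuron libraries, Irx1 is highest in both mesenchymal libraries, Irx2 and Irx6 lie at or near the floor, and Fto lies between 1053.1 and 3355.8 in all 8 libraries.

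Irx3 and Irx5 had their lowest signal in the neuron libraries of both organs. Irx3 had a signal of 106.4 in cochlear and 209.1 in vestibular neurons, against 4293.9, 4913.6 and 2267.4 in cochlear epithelial cells, mesenchyme and vascular endothelium and 1285.8, 2570.6 and 629 in the same vestibular cell types. Both neuron values lie below all 6 others, the nearest being vestibular vascular endothelium. Within an organ, Irx3 in mesenchyme was 46.2-fold above neurons in the cochlea and 12.3-fold above them in the vestibular organs. Irx5 had 56.9 in cochlear and 160.3 in vestibular neurons, against 2557.4, 2381.5 and 583.8 in cochlear epithelial cells, mesenchyme and vascular endothelium and 783.8, 1135.1 and 1042.5 in the same vestibular cell types. Again both neuron values lie below all 6 others, without overlap. Of the 15275 genes, 3.22% have both neuron values below all 6 others. All 5 markers of glia and Schwann cells were highest in these libraries within each organ, as given above. The summed signal of 3 pericyte markers was 10219.9 in cochlear and 152565.9 in vestibular neurons, against 268.5 to 14934 in the other 6 libraries, with 11748 in cochlear mesenchyme. Rgs5 alone was at 147259.9 in vestibular neurons. Within each organ Rgs5 and Kcnj8 were highest in neurons, whereas Pdgfrb was higher in mesenchyme (7824.1 in cochlear, 9218.5 in vestibular) than in neurons (3305 and 3938.5). The part of glial cells and pericytes in the Irx3 and Irx5 values was not tested.

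Each cell type was then compared with the mean of the other 3 by limma on log2(signal + 1) over all genes, with terms for cell type and for organ, in which the cochlear and the vestibular library stand for separate samples of a cell type. Nothing in the labels says whether they came from the same pups, so p-values measure only the spread between these libraries that the model leaves. In neurons, Irx3 differed by -3.84 ± 0.62 on the log2 scale (SE; 95% interval -5.47 to -2.21; adjusted p = 0.055) and Irx5 by -3.66 ± 0.72 (95% interval -5.55 to -1.77; adjusted p = 0.0775). Neither passed the adjusted threshold of 0.05, and 0 of the 6 genes did so in neurons, against 3.36% of all genes. At an unadjusted p under 0.05, 2 of the 6 were below it in limma, Irx3 and Irx5, as were 20.5% of all genes. Both passed with 3 alternative settings. When only genes with a highest signal of at least 100 were tested, the limma adjusted p was 0.0117 for Irx3 and 0.02105 for Irx5. Without the organ term it was 0.04621 and 0.0431, and with median-of-ratios scaling 0.02809 and 0.04438. The filter at 100 takes the highest value of the same 8 libraries. Here and below, it is thus not independent of the comparisons. Over all 14 alternatives the adjusted p ranged between 0.0117 and 0.2384 for Irx3 and between 0.02105 and 0.4156 for Irx5, with a difference below 0 in each.

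Among the other 3 cell types, Irx3 and Irx5 were not separated beyond the spread of the libraries. In the fit both were ordered mesenchyme, epithelial cells, vascular endothelium and neurons. For Irx3, epithelial cells minus mesenchyme was -0.60 on the log2 scale (95% interval -2.59 to 1.40), and epithelial cells minus vascular endothelium was 0.98 (-1.02 to 2.97). For Irx5 the same differences were -0.22 (-2.53 to 2.10) and 0.86 (-1.46 to 3.18). These intervals are wide and include 0, so the order of these 3 cell types is not set by the data. The step to neurons had an interval that leaves out 0: neurons minus vascular endothelium was -2.99 (-4.99 to -0.997) for Irx3 and -3.01 (-5.33 to -0.70) for Irx5, with no overlap between the libraries. Here and below, the order of cell types was taken from these same values. The intervals of neighbours in it are not adjusted over genes or pairs, so they describe a step and do not test it.

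In mesenchyme, Irx3 differed from the mean of the other 3 cell types by 2.24 ± 0.62 (limma, SE; adjusted p = 0.134) and Irx5 by 1.79 ± 0.72 (adjusted p = 0.262). In epithelial cells the values were 1.45 ± 0.62 for Irx3 (adjusted p = 0.209) and 1.51 ± 0.72 for Irx5 (adjusted p = 0.254). The hair cells and supporting cells of the organ of Corti and of the vestibular sensory patches are in the epithelial libraries, together with other epithelial cells. A library average does not say which of them hold the RNA. In bulk samples, fewer cells that express a gene and less RNA per cell cannot be told apart. In vascular endothelium the values were 0.15 ± 0.62 for Irx3 and 0.36 ± 0.72 for Irx5, and either sign was seen when a library was left out: Irx3 was -0.49 without cochlear vascular endothelium and Irx5 was -0.27 without vestibular vascular endothelium.

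**Figure D2:**
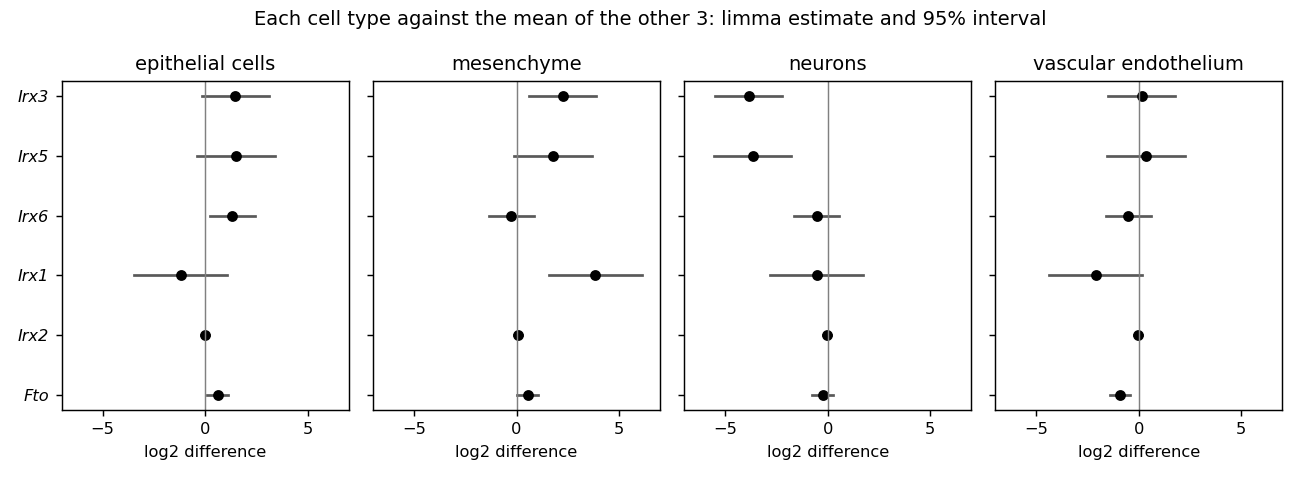
Fitted difference of each cell type from the mean of the other 3 on the log2(signal + 1) scale, 1 panel a cell type and 1 row a gene; points are limma estimates and bars their 95% intervals, not adjusted over genes. The estimates farthest from 0 are those of Irx3 and Irx5 in neurons (-3.84 and -3.66) and of Irx1 in mesenchyme (3.84), and no adjusted p is below 0.05.

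Irx3 and Irx5 varied together. Over the 8 libraries the Pearson correlation of their log2 signal was 0.927 and the Spearman correlation 0.881, and of 13257 other genes with a highest signal of at least 100, 8 were more like Irx3 than Irx5 is. The points are cell types that share organs and a common scaling, and the low neuron values span most of the range. The ratio of the Irx3 signal to the Irx5 signal was 1.68, 2.06 and 1.87 in cochlear epithelial cells, mesenchyme and neurons and 1.64, 2.26 and 1.30 in the same vestibular cell types. Vascular endothelium stood apart in opposite directions, at 3.88 in the cochlea and 0.603 in the vestibular organs. How the ratio would look per transcript length is unknown, so only its change between libraries can be read.

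The gene most like Irx5 lies beside it. The long noncoding RNA gene 4933436C20Rik, which GENCODE names Crnde, starts 1505 bases from Irx5 on the opposite strand (chr8:92326033-92356120), and the genes do not overlap. Its signal was 20 and 51.9 in cochlear and vestibular neurons, 586.6, 485.4 and 245.9 in cochlear epithelial cells, mesenchyme and vascular endothelium and 139.5, 339.4 and 188.8 in the same vestibular cell types. The cochlear neuron value is at the floor, and both neuron values lie below all 6 others, as for Irx3 and Irx5. Its Pearson correlation was 0.973 with Irx5, the highest of all genes compared, and 0.968 with Irx3, with 1 gene more alike. Its own difference in neurons was -3.14 ± 0.69 (limma, SE; adjusted p = 0.0948). By rank, 7 genes were more like Irx5 than 4933436C20Rik is (Spearman 0.929), so its first place holds for the linear measure.

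By the same measure the genes most like Irx3 were Rab27a, a small GTPase of vesicle transport (Pearson 0.992), 4933436C20Rik and Mnat1, an assembly factor of the CDK-activating kinase (0.966). Rab27a had a signal of 20 and 34.4 in cochlear and vestibular neurons, against 61.6 to 202.1 in the other 6 libraries. After 4933436C20Rik, those most like Irx5 were Tspyl1 (0.965) and Zfp827, a zinc finger gene (0.952), whose neuron values of 481.9 and 802.3 were also its lowest. With 13258 genes compared over 8 libraries, some lie close to any pattern, so these names are a description.

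Between the organs, Irx3 and Irx5 differed in the same direction in epithelial cells, mesenchyme and neurons and in opposite directions in vascular endothelium. The cochlear signal of Irx3 was 3.34-fold the vestibular signal in epithelial cells, 1.91-fold in mesenchyme, 0.509-fold in neurons and 3.60-fold in vascular endothelium. For Irx5 the same ratios were 3.26, 2.10, 0.355 and 0.560. With 1 library for each cell type and organ, such a ratio has no replicate and no test. Across the cell types, cochlear minus vestibular was 0.89 ± 0.54 for Irx3 on the log2 scale (limma, SE; adjusted p = 0.627) and 0.11 ± 0.62 for Irx5 (adjusted p = 0.947). The organ comparison called 0 of the 15275 genes (0%) and so 0 of the 6, although 964 genes (6.31%), and Fto alone of the 6, had an unadjusted limma p under 0.05. For Irx5 the difference was -0.42 without either epithelial library and -0.20 without either mesenchymal library.

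**Figure D3:**
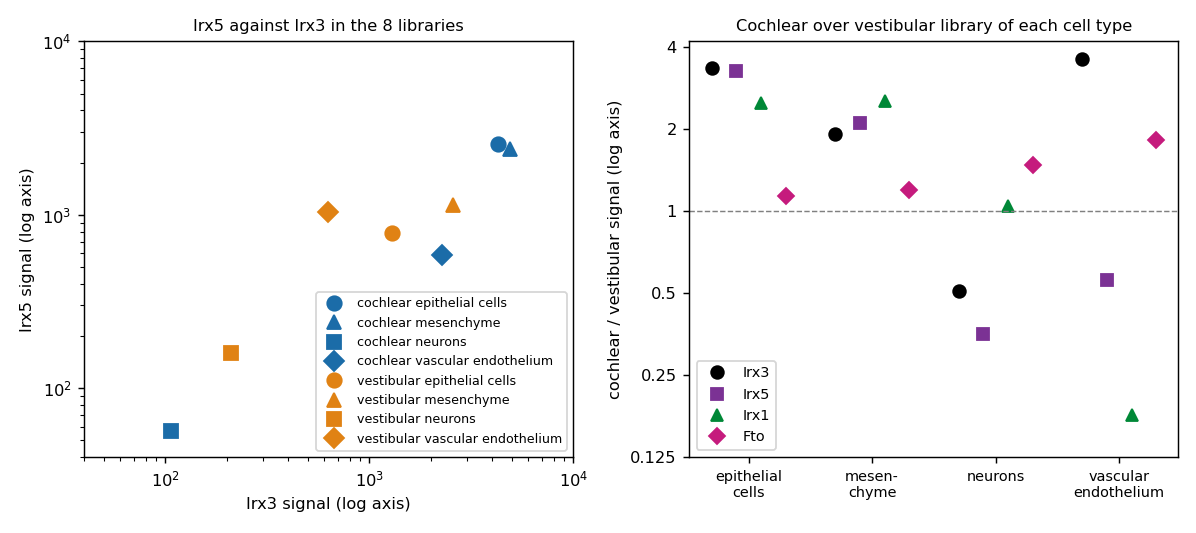
Left, Irx5 signal against Irx3 signal in the 8 libraries, both on log axes, with blue for cochlear and orange for vestibular libraries; right, the cochlear signal divided by the vestibular signal of the same cell type for Irx3, Irx5, Irx1 and Fto, on a log axis with a dashed line at equal signal. Both neuron libraries lie at the low end of both genes, Fto lies above 1 in all 4 cell types, and in vascular endothelium Irx3 is at 3.60 while Irx5 is at 0.560 and Irx1 at 0.179.

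Irx1 had its highest signal in the mesenchyme of both organs. It was 1790.5 in cochlear and 705 in vestibular mesenchyme, against 127.5, 116.8 and 21 in cochlear epithelial cells, neurons and vascular endothelium and 51.1, 111.9 and 117.6 in the same vestibular cell types. Both mesenchymal values lie above all 6 others, as for 7.63% of all genes. Within an organ, mesenchyme was 14.0-fold above epithelial cells in the cochlea and 13.8-fold above them in the vestibular organs. The difference from the mean of the other 3 cell types was 3.84 ± 0.86 on the log2 scale (limma, SE; 95% interval 1.58 to 6.11; adjusted p = 0.0907), which did not pass 0.05.

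In mesenchyme 0 of the 6 genes passed, against 3.33% of all genes, while 3 of the 6, Irx1, Irx3 and Fto, had an unadjusted limma p under 0.05, as had 20.9% of all genes. Irx1 passed when only genes with a highest signal of at least 100 were tested (adjusted p = 0.02735) and when vestibular vascular endothelium was left out (difference 4.40, adjusted p = 0.04315), and over its 14 alternatives the adjusted p ranged between 0.02735 and 0.4083. Mesenchyme minus neurons, the next in order, was 3.29 (95% interval 0.51 to 6.06), with no overlap of the libraries. Below mesenchyme the order was not set: epithelial cells minus neurons was -0.50 (-3.27 to 2.28), and epithelial cells minus vascular endothelium was 0.68 (-2.09 to 3.45).

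Markers of mesenchyme were found outside the mesenchymal libraries. Between the organs, their summed signal changed in the direction of Irx1 in vascular endothelium alone. The summed signal of 5 mesenchymal markers was 149010.5 in cochlear and 225733.3 in vestibular mesenchyme, against 1004.4 to 12842.3 in the other cochlear and 6015.5 to 35259.9 in the other vestibular libraries, and it was 1004.4 in cochlear and 16355.4 in vestibular vascular endothelium, the pair in which Irx1 was 21 and 117.6. None of the 5 was at the floor in either endothelial library. Otor, an otic mesenchyme gene, was at 408 in the cochlear and 10201 in the vestibular one. Markers of other cell types also differed between these libraries. In the vestibular one the sums were 2923.3 against 302.4 for epithelium, 5442 against 1272.3 for glia and Schwann cells and 2444.1 against 268.5 for pericytes. Hair cell and neuronal sums were higher there too, and macrophage and red cell sums lower. The endothelial sum was 93147.4 there against 214433.9 in the cochlear one. Red cell markers also moved with mesenchyme: the summed signal of Hba-a1 and Alas2 was 8395.1 in cochlear and 21706 in vestibular mesenchyme, against 40 to 991.7 in the other 6 libraries. The part of any of these cell types in the Irx1, Irx3 and Irx5 values was not tested.

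Crym, which encodes the thyroid hormone-binding protein mu-crystallin and is a human deafness gene, was the gene most like Irx1 (Pearson 0.987 over the 8 libraries). Crym had a signal of 20578.8 in cochlear and 5965.9 in vestibular mesenchyme, against 179.3 to 1548.6 in the other 6 libraries, and its mesenchymal difference was 4.14 ± 0.86 (limma, SE; adjusted p = 0.0793). The next were Gm10644 (0.977) and Lox, the lysyl oxidase that cross-links collagen and elastin (0.966), with 5697.9 and 5259.9 in cochlear and vestibular mesenchyme, against 118.6 to 701.8 elsewhere. With the other Iroquois genes, the Pearson correlation of Irx1 was 0.445 for Irx2, which was off the floor in 1 library, 0.323 for Irx3, 0.373 for Irx5 and -0.199 for Irx6, and the Spearman correlations were 0.412, 0.571, 0.714 and 0.109 in the same order.

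Irx6 and Irx2 were at or near the floor. Irx6 had a signal of 30.3 in cochlear and 93.1 in vestibular epithelial cells, against 26.6 in cochlear mesenchyme and the floor of 20 in the 5 libraries left. Both epithelial values lie above all 6 others, as for 12.4% of all genes, and vestibular epithelial cells were at least 4.66-fold above each library at the floor. The difference in epithelial cells was 1.30 ± 0.42 (limma, SE; 95% interval 0.21 to 2.40; adjusted p = 0.117), and epithelial cells minus mesenchyme, the next in order, was 1.17 (-0.17 to 2.52). The epithelial difference was 2.16 without cochlear epithelial cells and 0.44 without vestibular epithelial cells, so its size rests largely on the vestibular library. Each of these fits has 1 epithelial library. In epithelial cells 0 of the 6 genes passed, against 13.9% of all genes, with an unadjusted limma p under 0.05 for 2 of the 6, Irx6 and Fto, and for 29.7% of all genes. The genes most like Irx6 were Tmprss9, Hpse2 and Tmem215 (Pearson 0.983 each), all at the floor outside the epithelial libraries. They had 866, 182.8 and 411.9 in vestibular epithelial cells, but 48.1, 32.9 and 38.1 in cochlear epithelial cells. Their correlations thus rest largely on 1 library, and by rank 22 genes were more like Irx6 than each of them.

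Irx2 was at 22.5 in vestibular mesenchyme, and all of the other 7 libraries were at the floor of 20. Its fitted differences were between -0.03 and 0.08 on the log2 scale in the 4 cell types, with 95% intervals that reach no lower than -0.22 and no higher than 0.28, but at the floor a value is an upper limit, so these intervals do not bound a difference below it. The genes nearest to this pattern, Cxcr6, AF251705 and Cd300lh, are likewise off the floor only in vestibular mesenchyme or, for Cd300lh, at 20.4 also in cochlear mesenchyme, and so share a single library with it.

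Fto was well above the floor in all 8 libraries. It had a signal of 1916.4 in cochlear and 1053.1 in vestibular vascular endothelium, against 3355.8, 3327.1 and 2455.9 in cochlear epithelial cells, mesenchyme and neurons and 2945.6, 2776.1 and 1669.3 in the same vestibular cell types. Within each organ vascular endothelium was the lowest, but the cochlear endothelial value is above that of vestibular neurons, so the groups overlap. The highest value was 3.19 times the lowest, against 46.2 times for Irx3, 44.9 times for Irx5 and 85.3 times for Irx1, and 43.0% of all genes had a smaller ratio than Fto. In vascular endothelium Fto differed by -0.92 ± 0.19 on the log2 scale (limma, SE; 95% interval -1.43 to -0.41; adjusted p = 0.0535), and 0 of the 6 genes passed there, against 11.1% of all genes, with Fto the only one of the 6 at an unadjusted p under 0.05, as were 30% of all genes. It passed with a highest signal of at least 100 (adjusted p = 0.04729) and with median-of-ratios scaling (0.04524), and its adjusted p was between 0.04524 and 0.1535 over 14 alternatives, with the difference below 0 in each.

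In epithelial cells Fto differed by 0.61 ± 0.19 (limma, SE; adjusted p = 0.116) and in mesenchyme by 0.54 ± 0.19 (adjusted p = 0.213). Epithelial cells minus mesenchyme was 0.05 (95% interval -0.58 to 0.67). Mesenchyme minus neurons was 0.59 (-0.04 to 1.21), with libraries that do not overlap, and neurons minus vascular endothelium was 0.51 (-0.11 to 1.14), with libraries that do. The cochlear signal was above the vestibular one in 4 of 4 cell types, at 1.14-fold in epithelial cells, 1.20-fold in mesenchyme, 1.47-fold in neurons and 1.82-fold in vascular endothelium. Across them cochlear minus vestibular was 0.47 ± 0.17 (limma, SE; 95% interval 0.03 to 0.91; adjusted p = 0.627), which did not pass the threshold.

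The start of Fto is 263 bases from that of Rpgrip1l, a gene of the ciliary transition zone that is read in the opposite direction. Of the 262 bases between these starts, the 250 next to Fto, chr8:91313275-91313524 on the plus strand (GRCm38.p6, RefSeq promoter table), are shown because the genes diverge from this interval and their profiles over the cell types could be set side by side. Capitals mark CG dinucleotides.
Fto upstream: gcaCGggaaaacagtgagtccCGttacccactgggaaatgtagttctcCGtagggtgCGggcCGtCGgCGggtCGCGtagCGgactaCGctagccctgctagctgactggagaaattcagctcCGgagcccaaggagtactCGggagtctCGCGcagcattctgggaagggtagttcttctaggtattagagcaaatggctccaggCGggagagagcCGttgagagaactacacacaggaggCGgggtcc
The window holds 18 CG dinucleotides, and 21.8% of the 32536 promoter windows in the table hold as many or more. On both strands it has no match to the GC box GGGCGG, the CCAAT box or the TATA box TATAAA, which 33.0%, 33.8% and 12.3% of the windows hold. A missing match says only that these letters are not in this window. The promoter table held 3 of the 6 genes, Fto, Irx3 and Irx2.

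Rpgrip1l had the same order of cell types as Fto in the cochlea, but not in the vestibular organs. It had a signal of 183 in cochlear and 514.6 in vestibular vascular endothelium, against 599.4, 421.4 and 210.6 in cochlear epithelial cells, mesenchyme and neurons and 490.6, 306.1 and 279.5 in the same vestibular cell types. The vestibular endothelial value was thus its highest in that organ, where Fto was lowest. The remaining vestibular cell types kept the order of Fto, so the contrast rests on 1 library. That library also held markers of other cell types, as given above, and their part was not tested. The Pearson correlation with Fto was 0.152 and the Spearman correlation 0.405 over the 8 libraries, and by Pearson 6143 of 13257 genes were more like Fto. The genes most like Fto were Armc9, a gene of the ciliary base (0.989), Plxnb2, a semaphorin receptor (0.985), and Gcat, an enzyme of threonine breakdown (0.978). Fto and Irx3 had a Pearson correlation of 0.494, with 3476 genes more like Fto than Irx3 is, and a Spearman correlation of 0.714.

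Fto was next set beside 21 other genes that write, erase or read m6A. All 22 genes of this list were in the table and 0 of 22 were called in any of the 4 cell types in limma. At an unadjusted p under 0.05 epithelial cells had 2, mesenchyme 3, neurons 1 and vascular endothelium 3, with Fto among them in all but neurons. Over all genes these shares were 29.7%, 20.9%, 20.5% and 30%, and the shares called were 13.9%, 3.33%, 3.36% and 11.1%. The median difference of the list was -0.05 in epithelial cells, where it was -0.07 over all genes tested. For mesenchyme the list gave -0.23 beside -0.02, for neurons 0.12 beside -0.04, and for vascular endothelium 0.09 beside -0.03. Alkbh5, the other known eraser, was named for that role after its values had been seen. It had a signal of 2697 in cochlear and 2069 in vestibular vascular endothelium, against 2654.6, 3130.9 and 2968.5 in cochlear epithelial cells, mesenchyme and neurons and 2968.5, 2679.8 and 2118.1 in the same vestibular cell types, and its endothelial difference was -0.21 ± 0.19 (limma, SE; adjusted p = 0.516). The highest signal of Alkbh5 was 1.51 times its lowest, and the same ratio was 1.47 for the catalytic writer Mettl3, 3.19 for Fto and 18.3 for the reader Igf2bp2, with a median of 2.18 over the list, in which Fto was 17 of 22 from the smallest ratio.

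The Iroquois genes were also set beside the rest of the TALE class, of which 17 of 18 listed genes were in the table, the 5 Iroquois genes included. Of the 17, 1 rose and 0 fell in epithelial cells, and 1 rose and 1 fell in mesenchyme. In neurons 0 passed in either direction, and in vascular endothelium 0 rose and 1 fell. Over all genes, the shares called in either direction were 13.9%, 3.33%, 3.36% and 11.1%. At an unadjusted limma p under 0.05 there were 5, 8, 5 and 3 of 17, beside 29.7%, 20.9%, 20.5% and 30% of all genes. Those in neurons include Irx3 and Irx5. The list medians were 0.48, 0.39, -0.28 and -0.51 in the same order, beside the medians over all genes given with the m6A list. Meis1, a cofactor of Hox proteins, rose by 3.01 ± 0.38 in epithelial cells (limma, SE; adjusted p = 0.0166) and fell by 2.67 ± 0.38 in mesenchyme (adjusted p = 0.0454). Pknox2, a gene of the Pbx/Knotted family, rose by 2.98 ± 0.38 in mesenchyme (adjusted p = 0.039), with a signal of 1372.3 in cochlear and 983.6 in vestibular mesenchyme, against 101.3 to 215.9 elsewhere. Meis3 fell by 3.16 ± 0.39 in vascular endothelium (adjusted p = 0.021), with 20 in the cochlear and 37.4 in the vestibular endothelial library, against 122.9 to 319.4 elsewhere. With 1 library left out at a time, the epithelial call of Meis1 held in 3 of 8 fits (adjusted p up to 0.137), and the calls of Meis1 and Pknox2 in mesenchyme and of Meis3 in vascular endothelium held in 0 of 8 (up to 0.316, 0.229 and 0.128), each with its direction kept. Without the organ term both calls of Meis1 were lost (adjusted p = 0.08132 in epithelial cells and 0.1681 in mesenchyme).

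Around Fto and the Irx3 cluster, neighbouring genes differed in where they were highest. The study's putative risk genes at the human loci that hold FTO comprise 10 genes, all in the table: Fto, Irx3, Irx5, Irx6, Lpcat2, Mmp2, Rpgrip1l, Slc6a2, Gnao1 and Rbl2. Part of the evidence that chose them came from open chromatin of mouse cochlear cells, so the list is not independent of this tissue. In epithelial cells 1 of 10 rose, in mesenchyme 1 of 10 rose, in neurons 0 passed, and in vascular endothelium 2 of 10 fell. The shares of all genes called were again 13.9%, 3.33%, 3.36% and 11.1%. At an unadjusted limma p under 0.05 there were 3, 3, 3 and 4 of 10, beside 29.7%, 20.9%, 20.5% and 30% of all genes. Those in neurons were Irx3, Irx5 and Mmp2. Lpcat2, an enzyme that remodels phospholipids, rose by 2.98 ± 0.29 in epithelial cells (limma, SE; adjusted p = 0.012) and fell by 2.34 ± 0.29 in vascular endothelium (adjusted p = 0.0211). Its signal was 1037.8 in cochlear and 883.4 in vestibular epithelial cells, against 48.8 to 190.1 in the other 6 libraries.

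Mmp2, a matrix metalloproteinase whose start is 153.0 kb from that of Irx6, rose by 3.16 ± 0.32 in mesenchyme (limma, SE; adjusted p = 0.0281) and fell by 2.51 ± 0.32 in vascular endothelium (adjusted p = 0.0227). Its signal was 32734.5 in cochlear and 28959.6 in vestibular mesenchyme, against 1288.8 to 10091.8 elsewhere. The others of the list did not pass in any cell type. Of their 4 differences, the one farthest from 0 was -1.14 ± 0.47 in vascular endothelium for Gnao1, a G protein subunit, 0.86 ± 0.46 in epithelial cells for Rpgrip1l, -0.63 ± 0.23 in vascular endothelium for Rbl2, a relative of the retinoblastoma protein, and 0.57 ± 0.27 in epithelial cells for Slc6a2, the noradrenaline transporter. Slc6a2 was off the floor in 1 library, at 45.3 in cochlear epithelial cells. In its single-cell data the study found Gnao1 and Rpgrip1l selective for sensory hair cells. Hair cells are only part of the epithelial libraries, so the missing calls here do not bear on that finding.

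Within 1 Mb of the 6 genes, start to start, 17 other genes of the table were annotated. In epithelial cells Ces1d, Lpcat2 and Tert rose and Lpcat1 fell, in mesenchyme Mmp2 rose, in neurons Lpcat1 rose, and in vascular endothelium Lpcat2, Mmp2 and Tert fell. That is 4, 1, 1 and 3 of 17, beside 13.9%, 3.33%, 3.36% and 11.1% of all genes called. Ces1d, a carboxylesterase gene, had 289.5 in cochlear and 149.8 in vestibular epithelial cells, against the floor of 20 elsewhere, with a fitted difference of 3.32 ± 0.25 (limma, SE; adjusted p = 0.00777). On chromosome 13 Tert, the catalytic subunit of telomerase, rose by 2.38 ± 0.34 in epithelial cells and fell by 2.53 ± 0.34 in vascular endothelium, and Lpcat1 fell by 1.59 ± 0.20 in epithelial cells and rose by 1.44 ± 0.20 in neurons. With 1 library left out at a time, the epithelial call of Ces1d held in 8 of 8 fits, and in epithelial cells that of Lpcat2 held in 5 of 8 (lost without either epithelial library or vestibular neurons; adjusted p up to 0.103), that of Lpcat1 in 4 and that of Tert in 2. The mesenchymal call of Mmp2 held in 3 of 8, lost without either mesenchymal library, either neuron library or vestibular epithelial cells (adjusted p up to 0.229). The calls of Lpcat2, Mmp2 and Tert in vascular endothelium and of Lpcat1 in neurons held in 0 of 8, with the directions kept. That of Lpcat1 in neurons was also lost without the mean-variance trend (adjusted p = 0.0514) and without the organ term (0.06391). Of these 17 genes, only 4933436C20Rik was among the 3 genes most like any of the 6.

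**Figure D4:**
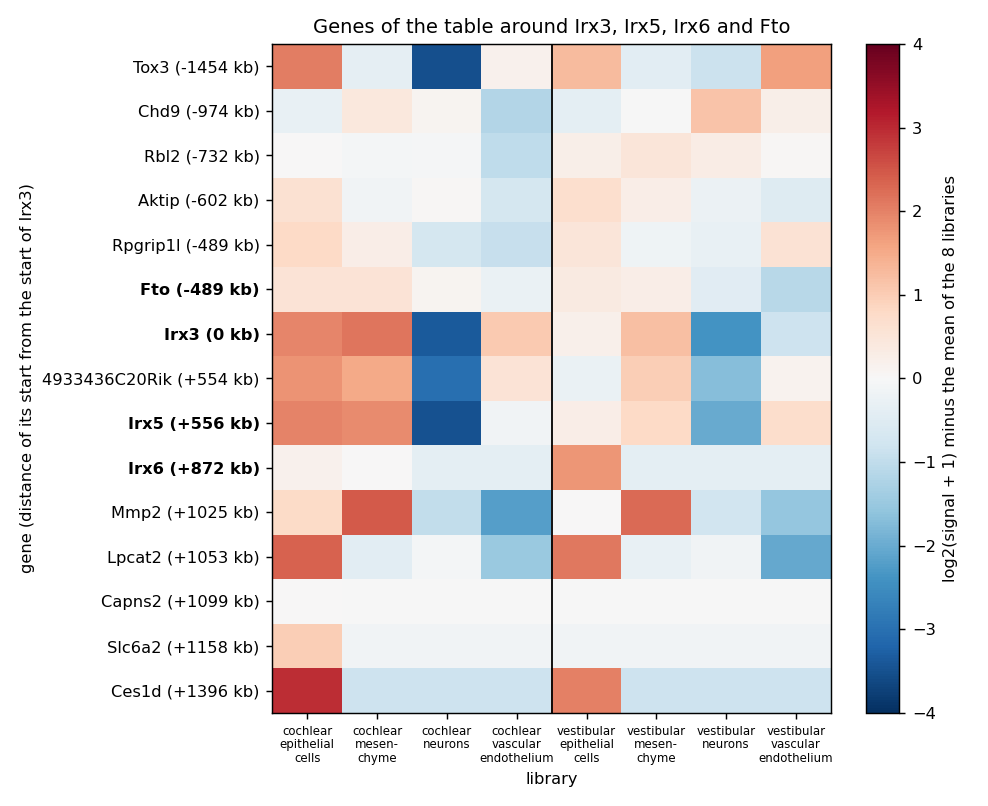
Genes of the table on chromosome 8 within 1 Mb of Irx3, Irx5, Irx6 or Fto, in the order of their starts, with the distance from the start of Irx3 in kb; columns are the 8 libraries, and colour is log2(signal + 1) minus the gene's mean over the 8 libraries. Irx3, 4933436C20Rik and Irx5 share low values in both neuron libraries, while Fto and Rpgrip1l, whose starts are 263 bases apart, differ in vestibular vascular endothelium, Mmp2 is high in both mesenchymal libraries and Lpcat2 in both epithelial libraries.

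Other annotated genes overlap some of these loci and limit what a value can be assigned to. On the opposite strand, Irx3os overlaps Irx3, Gm45505 overlaps Irx6, and Gm45427, 4831440D22Rik, Gm45290 and Gm3235 overlap Fto. Whether counting used the strand of the reads is not stated, so reads of these pairs cannot be told apart. On the same strand, Gm45292, Gm45289, Gm45294 and Gm45293 overlap Fto, where the strand of a read would not separate them.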

How the data were processed

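Libraries of sorted cells were sequenced by the authors. TopHat 1.0.0 and GRCm38 are listed in the notes of the submitters on processing. The table deposited by the authors holds a signal for each gene, with identical sorted values in all 8 libraries; counting, normalization and strand are not given in the sources used here. The p-value test had been planned for log values or, had the files held counts, for a count model; the signal was treated as a normalized value. The authors' mean and cluster columns were not used.

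Genes were matched by Ensembl identifier to GENCODE vM21 (15030 of 15275); where a symbol stood for several identifiers, the one found there was used. A linear model with terms for cell type and organ was fitted with limma 3.58.1 (R 4.3.3) to log2(signal + 1) over all 15275 genes, with a mean-variance trend and 3 residual degrees of freedom. The p-values were adjusted by Benjamini-Hochberg with a threshold of 0.05, and the script was tested on simulated data. Genes at the floor entered the fit, and fold changes near it are understated. Other steps used Python 3.11.15, numpy 2.4.6, scipy 1.17.1 and pandas 2.3.3.

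The genes and lists were chosen with earlier results of these data known. The text names all 6 genes, up to 4 called genes of a list and cell type, all 10 putative risk genes, the 3 called neighbours with the largest change, the 3 genes of highest Pearson correlation with each gene (among 13258 with a highest signal of at least 100) and marker genes; Tert, Lpcat1 and Alkbh5 were added after their values were seen. Alternatives were pseudocounts of 10 and 0.1, a highest signal of at least 100, no trend, no organ term, median-of-ratios scaling, each library left out, subtraction of the floor and rank correlation.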

Additional observations from a re-analysis of the deposited data

Results flagged for a closer look

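Irx1 differed between epithelial cells and vascular endothelium in opposite directions in the organs. Epithelial cells minus vascular endothelium was 2.55 on the log2(signal + 1) scale in the cochlea (127.5 against 21) and -1.19 in the vestibular organs (51.1 against 117.6). With 1 library for each cell type and organ the difference was not tested.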

How the results depend on the processing

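Over 410 alternative values of the 6 genes' differences, 380 kept their direction and side of the threshold, 11 passed it and 19 changed sign; Irx2 and Irx6 have no value under the filter at 100. Counts of genes called were 1098 with the filter at 100 and 890 with median-of-ratios scaling in mesenchyme (509 in the main fit), and 861 with the filter and 778 without the organ term in neurons (514); the causes were not tested. Leaving out each library gave 255 to 1997 calls in epithelial cells, 0 to 626 in mesenchyme, 0 to 638 in neurons and 0 to 909 in vascular endothelium. With median-of-ratios scaling, Irx2 in epithelial cells was 0.02544 and the organ difference of Irx1 was -0.0106. With 1 library left out at a time, the differences that took either sign ranged between -0.7213 and 0.2024 for Irx6 in mesenchyme, -1.094 and 0.01692 for Irx1 in neurons, -0.2731 and 0.994 for Irx5 and -0.4918 and 0.7881 for Irx3 in vascular endothelium, and, for cochlear against vestibular libraries, -0.5293 and 0.1314 for Irx6, -0.3556 and 0.9024 for Irx1 and -0.415 and 0.6459 for Irx5; none of these passed the threshold. By rank correlation 0 of the 3 genes most like Irx5, and 0 of the 3 most like Irx6, were still among the first 3. The organ term of the fit groups the libraries of each organ, and the labels give no other pairing. Depth is unknown, so no limit by depth can be given.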
